A study of Mus musculus with 40 samples.

Results

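Collagens are the triple-helical proteins of the extracellular matrix, and their genes were followed here with 1-colour Agilent arrays in mouse cerebral cortex and cerebellum. Every probe for a gene whose name begins with Col, a number, a and a number was taken as a member. This rule found 64 of the 55681 gene probes and 43 of the 36406 gene names on the array. Of the 43 names, 42 are collagen genes, measured by 63 probes. The remaining name is Col4a3bp, a ceramide transfer protein named for a protein it binds, which is no collagen chain and is counted apart. By structure, the 42 genes comprise 11 fibrillar, 9 fibril-associated, 6 basement membrane, 5 beaded filament, 4 transmembrane, 3 short-chain network, 2 multiplexin and 2 anchoring or other collagens. For Col6a3 and Col26a1, no probe matched the rule.

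Each region was measured in 5 groups of 4 mice, all on the C57Bl/6 background. Young (2 months) and aged (29 months) wild-type mice ate the normal diet, which holds 36 mg α-tocopherol per kg. Aged wild-type mice on a vitamin E deficient diet formed the next group. Aged Ttpa-/- mice, which lack the α-tocopherol transfer protein in the whole body, received either the deficient diet or a supplemented diet with 600 mg α-tocopherol per kg. No group of Ttpa-/- mice on the normal diet and no young Ttpa-/- mice were analysed here. Whole tissue was used, so fewer cells of a type and less RNA per cell cannot be told apart in any of the values below. The comparisons asked how collagen transcripts differ between the regions, with age, and with the loss of vitamin E by diet or by genotype.

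A collagen chain repeats the residues Gly-X-Y, and the small glycine lets 3 chains wind around each other. Fibrillar collagens such as types I and III form the cables of connective tissue and, in the brain, lie mainly in the meninges and around larger vessels. Type IV collagen forms the sheet-like scaffold of basement membranes, which in the brain surround capillaries. Multiplexins and beaded filament collagens join basement membranes to the surrounding matrix, fibril-associated collagens sit on the surface of fibrils, and transmembrane collagens are anchored in the cell surface, from which their ectodomains can be shed.

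The repeat is visible in the coding sequence. Of the collagen probes, 2 carry the glycine codon of each Gly-X-Y unit along their whole length of 60 bases. They lie on mm9 at chr4:47283786-47283845 for Col15a1 and at chr3:130270497-130270556 for Col25a1, both on the plus strand. They are shown because they display the motif that defines the family. Capitals mark the 6 glycine codons, which begin 9 bases apart.
Col15a1 A_55_P2060386: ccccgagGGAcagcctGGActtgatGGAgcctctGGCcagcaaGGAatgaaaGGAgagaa
Col25a1 A_55_P2107711: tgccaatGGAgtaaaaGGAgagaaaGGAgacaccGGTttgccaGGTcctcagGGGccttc

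The probes behind the ageing results lie elsewhere in their transcripts, and their first 30 bases identify them. Col23a1 was read by 3 probes. They map to mm9 chr11:51394105-51394164, chr11:51396885-51396944 and chr11:51381425-51382971 on the plus strand. The last interval is longer than the probe of 60 bases, so that probe is split on the genome, as across a splice junction. Col3a1 was read at chr1:45405589-45405648, Col4a1 at chr8:11199009-11199068 on the minus strand, Col4a2 at chr8:11448840-11448899 and Col9a3 at chr2:180356123-180356182. Whether these positions fall in exons of the coding region or in untranslated ends was not determined here.
Col23a1 A_55_P2086978: ttcagcacgcttccagaagccaccctgaca
Col23a1 A_52_P441036: acacgcccagtagtgaagctgctcactgtg
Col23a1 A_51_P457557: ggtgacacagtggtaatcgactatgacggc
Col3a1 A_51_P515605: ataagccaaactctctgaaaccccagcaaa
Col4a1 A_51_P124254: ttttcgtctctggagaaactgtactatcct
Col4a2 A_51_P491350: cagtcttcctaaaatgaggcagagtctagg
Col9a3 A_66_P101732: taaaacaaggacttcagtaggaaatggctc

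Col4a1 and Col4a2, the chains of the common form of type IV collagen, are neighbours that are transcribed away from each other. In the RefSeq annotation of GRCm38.p6 the Col4a2 start is at position 11312805 of chromosome 8 on the plus strand. The Col4a1 start is at position 11312826 on the minus strand, 21 bases away. The window chr8:11312801-11312830 is shown on the plus strand because the pair is followed below, with both annotated starts in capitals.
Col4a1 and Col4a2 starts: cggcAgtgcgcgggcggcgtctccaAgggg

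All levels below are log2 processed signals scaled to the 75th percentile of their array, and levels of different probes are not compared. Every group lay on 1 slide, and 4 of the 14 comparisons were made within a slide. For the other 10, slide and group cannot be told apart. The 5 cortex markers and the 6 cerebellum markers differed between the regions in the direction of their names at both ages. Of the Ttpa probes, A_66_P128446 was well above background on all 12 wild-type cerebellar arrays and on 1 of the 8 Ttpa-/- cerebellar arrays. The other, A_55_P2013701, was above background on 0 wild-type cerebellar arrays and on 1 deficient Ttpa-/- one, so it gives no check of genotype. In cortex the first was above background on 1 of the 20 arrays and the other on 0, so that the cortical genotype labels have no such check. The mean of 9 choroid plexus markers set 4 arrays over 2 log2 units apart from their group's median. These were young cortex replicate 4 at -2.93 (group median 1.32), aged cortex replicate 4 at -2.69 (0.50), deficient Ttpa-/- cortex replicate 1 at -1.99 (1.30) and young cerebellum replicate 1 at 2.49 (-0.99). Results that rest on these arrays are given with and without them.

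Of the 42 collagen genes, each represented by its brightest probe, 20 were well above background on all 40 arrays. They include Col1a1, Col1a2, Col3a1 and Col5a1 of the fibrillar class, Col4a1, Col4a2, Col4a4, Col4a5 and Col4a6 of the basement membrane, Col6a1 and Col6a2, and the multiplexin Col18a1. Between 23 and 28 collagens were above background on all 4 arrays of a given group. Col28a1 and Col4a3 were above background on 0 arrays, and 5 others on 1 to 5 arrays. In all, 32 genes reached all 4 arrays of some group. The 10 that did not were Col4a3, Col5a2, Col6a4, Col6a5, Col6a6, Col11a1, Col13a1, Col15a1, Col24a1 and Col28a1, and these could not be tested with all 40 arrays.

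Detection itself differed by region. Col17a1, a transmembrane collagen of hemidesmosomes, was above background on 20 of 20 cerebellar and 0 of 20 cortical arrays. The fibril-associated Col22a1 was above background on 20 cortical and 6 cerebellar arrays. Col10a1, a short-chain collagen known from growth cartilage, was above background on 8 cortical and 0 cerebellar arrays. Col9a1 was detected on 5 cortical and 17 cerebellar arrays, and Col27a1 on 9 and 18. Col11a1 was detected on 12 cortical and 2 cerebellar arrays, and Col24a1 on 10 and 1. Col15a1, the second multiplexin, was above background on 2 cerebellar arrays and on 0 cortical arrays, and Col5a2 on 9 and 2.

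Cortex and cerebellum differed widely in their collagens. At 2 months, 22 of the 30 collagens tested passed the test in limma (adjusted p under 0.05 and a change over 1.5-fold), 9 higher in cortex and 13 higher in cerebellum. Over all genes tested in that comparison 37.2% passed, 19.4% higher in cortex and 17.8% higher in cerebellum. At 29 months, 19 of 29 collagens passed, 9 higher in cortex and 10 in cerebellum, where 32.5% of all genes passed, 15.9% higher in cortex and 16.5% in cerebellum. The regions' arrays did not overlap for 20 of the 30 collagens at 2 months, where the share among all genes was 58.3%, and for 17 of the 29 at 29 months, where it was 56.9%. A gene could enter these tests through the region where it is higher. Over the 21 collagens above background on all arrays of both regions at 2 months, the median difference, cortex minus cerebellum, was -0.32, against 0.06 over all such genes, and over the 20 at 29 months it was 0.03 against 0.04.

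More of the fibrillar collagens tested were higher in cerebellum than in cortex. Of the 8 tested at 2 months, 6 were higher in cerebellum and 1 in cortex, and at 29 months 4 were higher in cerebellum and 0 in cortex. Of the 8 vascular and meningeal fibroblast markers, 2 were higher in cerebellum (Dcn and Lum) and 1 in cortex (Serping1) at both ages, and their part in these differences was not tested. Col1a2, a chain of type I collagen, read 1.71, 2.05, 2.04 and 1.60 on the young cortical arrays and 2.72, 2.82, 2.72 and 2.68 on the young cerebellar arrays. Every cerebellar value lay above every cortical one. The difference was -0.89 (SE 0.14, adjusted p = 1.84e-06) at 2 months and -0.94 (SE 0.14, adjusted p = 9.31e-07) at 29 months. Its partner chain Col1a1 differed by -0.89 (SE 0.33, adjusted p = 0.0196) at 2 months. At 29 months the aged cerebellar Col1a1 values spread from -0.38 to 2.14 and overlapped those of cortex, with a difference of -0.90 (SE 0.33, adjusted p = 0.0205). At 2 months the Col1a1 difference lost its call without the 4 arrays that stand apart (adjusted p = 0.0653).

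Col5a3, a chain of the type V collagen that regulates fibril width, differed by -1.88 (SE 0.29) at 2 months and -1.14 (SE 0.29) at 29 months. Col27a1 differed by -2.44 at 2 months and by -1.06 at 29 months, the latter with overlapping arrays and no call without the 4 arrays that stand apart (adjusted p = 0.0703). Col2a1, the main collagen of cartilage, was lower in cortex at 2 months (-2.73, SE 0.41, adjusted p = 6.21e-07). At 29 months it differed by -0.82 and was not called. Col3a1 was lower in cortex at 2 months (-1.19, SE 0.28, adjusted p = 0.000528) and was not called at 29 months. Col11a2 was the fibrillar gene called higher in young cortex (0.62, SE 0.22, adjusted p = 0.0126), with overlapping arrays and no call without the 4 arrays that stand apart. Col5a1 did not pass at either age, with differences of -0.43 and 0.01.

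Basement membrane chains were divided. Col4a1 and Col4a2 were higher in cortex at both ages, Col4a1 by 0.70 (SE 0.15) and 1.09 (SE 0.15), and Col4a2 by 0.84 (SE 0.15) and 1.14 (SE 0.15), at 2 and 29 months. Col4a5, a chain that assembles with other minor type IV chains, was higher in cerebellum, with differences of -0.90 (SE 0.14, adjusted p = 2.04e-06) and -0.65 (SE 0.14, adjusted p = 0.000252). For Col4a4 and the brightest Col4a6 probe no call was made at either age. Of the 7 endothelial markers, 1 was called at 2 months and 0 at 29 months. Of the 8 mural cell markers, 0 were called at either age.

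Col18a1, the multiplexin whose C-terminal fragment is endostatin, was far lower in cortex than in cerebellum. Its cerebellar levels at 2 months were 3.25, 3.34, 3.21 and 3.28. Its cortical levels at that age were -1.08, -1.22, -1.02 and -1.39. The regions were thus separated on every array, by -4.45 (SE 0.13, adjusted p = 2.34e-24) at 2 months and -4.10 (SE 0.13, adjusted p = 2.6e-23) at 29 months. A second Col18a1 probe gave -3.25 and -2.73.

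Both beaded filament collagens tested were higher in cortex, while Col6a4, Col6a5 and Col6a6 were not tested. Col6a1 differed by 1.40 (SE 0.22) at 2 months and 1.61 (SE 0.22) at 29 months, and Col6a2 by 0.66 (SE 0.20) and 0.95 (SE 0.20). Among the fibril-associated genes, Col16a1 was higher in cortex by 0.86 and 1.05, and the type IX chains Col9a2 (-0.67 and -0.70) and Col9a3 (-1.66 and -1.19) were higher in cerebellum. Col22a1, known from tissue junctions, was higher in cortex. Its level was between -0.91 and -0.25 on the young cortical arrays and between -6.71 and -4.35 on the young cerebellar arrays, of which 1 was above background. The difference was 5.30 (SE 0.57, adjusted p = 9.64e-10) at 2 months and 3.64 (SE 0.57, adjusted p = 1.71e-06) at 29 months. Its size rests on cerebellar signals near background, and with normexp background correction it was 2.77 and 2.15, still called.

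Col7a1, the anchoring fibril collagen, was lower in cortex by -2.36 (SE 0.31) and -1.92 (SE 0.31). Transmembrane collagens went both ways. Col17a1 was not well above background in cortex and was at least 2.69-fold higher in cerebellum at 2 months and at least 3.19-fold higher at 29 months. The call at 2 months was lost with normexp background correction. Col25a1, a neuronal collagen whose shed ectodomain was found in amyloid plaques, was higher in cortex by 2.17 (SE 0.37) and 1.39 (SE 0.37). Its repeat-bearing probe shown above was not well above background in young cerebellum and was at least 2.70-fold higher in young cortex. Another Col25a1 probe was at least 5.65-fold higher there. Col8a1, a short-chain collagen of vessel walls, was higher in cortex by 1.32 (SE 0.41, overlapping arrays) and 1.84 (SE 0.41).

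**Figure D1:**
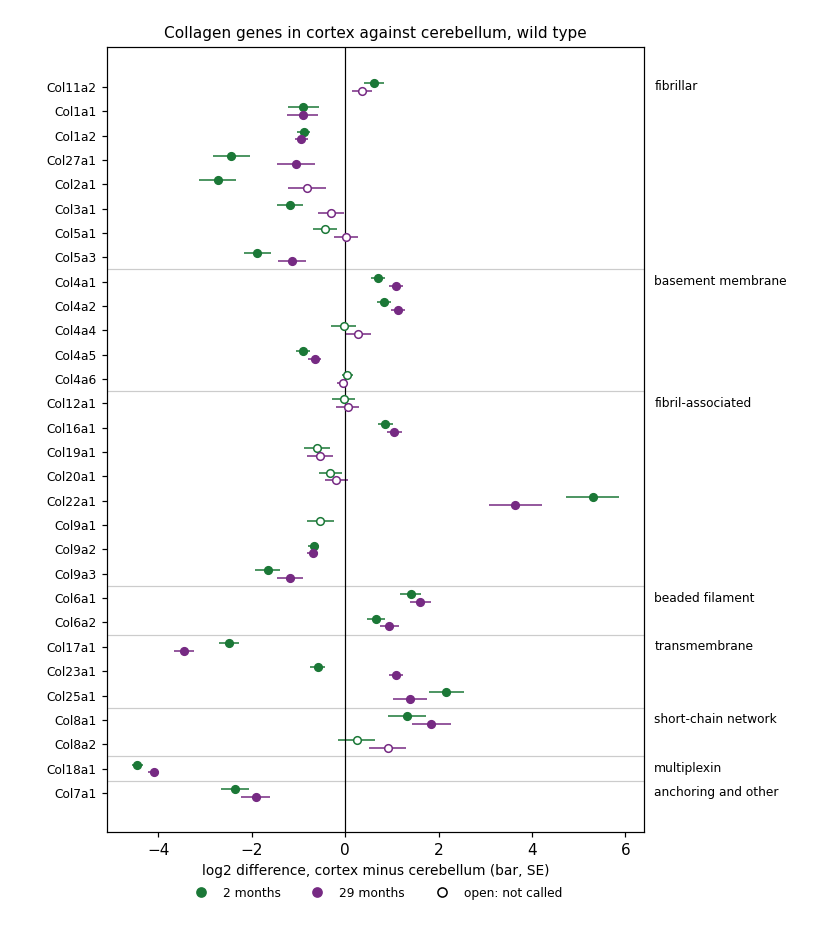
Log2 difference between cortex and cerebellum (x axis; negative values are higher in cerebellum) for each collagen tested at 2 months (green) or 29 months (purple) in wild-type mice, with bars of 1 SE and genes grouped by class. Filled points passed the test in limma; Col18a1 lies at -4.45 and -4.10, Col22a1 at 5.30 and 3.64, and Col23a1 crosses from -0.59 to 1.09. The Col17a1 points are fitted values against a cortical signal that was not well above background.

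With age, 5 collagens fell in the cerebellum and 0 rose. Of the 27 collagens tested there, 5 of 27 were called lower (18.5%), where 1.01% of all genes were called lower, 4.54% higher and 5.55% in either direction. The 5 were Col23a1, Col3a1, Col9a3, Col4a1 and Col4a2. Without young replicate 1 the count was 3 and without young replicate 3 it was 2, Col23a1 and Col3a1. The arrays of the 2 ages did not overlap for 8 of the 27 collagens, where the share among all genes was 20.1%. Over the 26 collagens above background on all arrays of both ages, the median change was -0.12, against -0.01 over all such genes. Young and aged cerebellum lay on different slides.

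Col23a1, a transmembrane collagen, changed most. Its levels were -0.81, -0.99, -0.97 and -1.16 in young cerebellum and -2.51, -2.69, -2.51 and -2.92 in aged cerebellum. The lowest young array was above the highest aged array by more than the spread of either group. The change was -1.68 (SE 0.16, adjusted p = 2.01e-09). The exact permutation test of 4 against 4 arrays gave 0.0286, the smallest p it allows, for each of the 5 genes called. The other 2 Col23a1 probes fell as well. The second bright probe fell by 1.31 (adjusted p = 1.83e-07). The dim probe whose position is split on the genome was not well above background in aged cerebellum and was at least 1.84-fold lower there (adjusted p = 5.52e-05).

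In cortex Col23a1 was not called with age. Its young cortical levels were -1.39, -1.45, -1.38 and -2.08 and its aged levels -1.51, -1.73, -1.67 and -1.37, a change of 0.01 (SE 0.16), or -0.23 without the 4 arrays that stand apart, not called either way. The change in cortex minus the change in cerebellum was 1.68 (SE 0.22, adjusted p = 2.33e-05), and the other 2 probes gave 1.45 and 2.44, both called. Col23a1 was the sole collagen of 30 tested for which the change with age differed between the regions, where 1.61% of all genes differed, 0.492% higher and 1.12% lower. Its order between the regions turned with age: the difference, cortex minus cerebellum, was -0.59 (SE 0.16, adjusted p = 0.00167) at 2 months and 1.09 (SE 0.16, adjusted p = 5.39e-07) at 29 months. The difference at 2 months was not called for the other 2 probes, nor without the 4 arrays that stand apart (-0.37, adjusted p = 0.0624). The fall in cerebellum and the difference between the regions kept their calls without those arrays, at -1.62 and 1.39.

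Col3a1, the chain of type III collagen, read -1.01, -0.92, -0.74 and -1.01 in young cerebellum and -2.31, -2.11, -2.54 and -2.29 in aged cerebellum. The groups did not overlap, and the change was -1.39 (SE 0.28, adjusted p = 0.000874). In cortex its change was -0.52 (SE 0.28, adjusted p = 0.414), and the difference between the regions did not pass (0.88, SE 0.40, adjusted p = 0.369). The type I chains that share fibrils with it were not called with age in either region. Col1a2 changed by 0.17 (SE 0.14) in cerebellum and 0.12 (SE 0.14) in cortex, and Col1a1 by -0.03 (SE 0.33) and -0.04 (SE 0.33).

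The type IV pair fell together in cerebellum. Col4a1 read -0.97, -0.81, -0.75 and -1.36 in young and -1.69, -1.72, -1.50 and -1.57 in aged cerebellum. Col4a2 read -0.60, -0.71, -0.46 and -0.81 in young and -1.35, -1.31, -1.10 and -1.21 in aged cerebellum. The ages did not overlap for either gene. The changes were -0.65 (SE 0.15, adjusted p = 0.00471) for Col4a1 and -0.60 (SE 0.15, adjusted p = 0.0069) for Col4a2, both near the 1.5-fold threshold. In cortex the changes were -0.26 and -0.30 and were not called, and the differences between the regions did not pass (adjusted p = 0.519 for Col4a1 and 0.671 for Col4a2). Without the 4 arrays that stand apart, Col4a2 changed by -0.58, short of the fold threshold (adjusted p = 0.0117), and Col4a1 by -0.65, still called. Col4a1 lost its call without young replicate 3, and Col4a2 without young replicate 1 or 3 or aged replicate 1 or 2.

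Col9a3, a chain of the fibril-associated type IX collagen, read -1.18, -1.49, -1.70 and -1.96 in young and -2.40, -2.23, -2.55 and -2.43 in aged cerebellum. The change was -0.82 (SE 0.27, adjusted p = 0.0485), a call kept in 1 of the 8 fits that each left out 1 array, that without young replicate 4. Young replicate 1, which stands apart in choroid plexus markers, had the highest Col9a3 level of the 4 young arrays. Without the arrays that stand apart the change was -0.69 (adjusted p = 0.00472). Of the other collagens in cerebellum, Col18a1 changed by -0.42 (SE 0.13, adjusted p = 0.0245), under the fold threshold, and Col20a1 by -0.69 (adjusted p = 0.0701). Col27a1 changed by -1.04 (SE 0.40, adjusted p = 0.0986), with 1 aged array at -3.73 and the others between -2.43 and -2.32. Col5a1, Col6a1 and Col6a2 changed by -0.17, 0.06 and 0.08, each within 1 SE.

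The choroid plexus markers also fell in aged cerebellum, and their part in the collagen changes was not tested. Of the 9 markers, 4 were called lower, among them Ttr at -7.70. Their mean ranged from -1.65 to 2.49 in young and from -3.43 to -2.81 in aged cerebellum. The 8 vascular and meningeal fibroblast markers, which belong to cells that make types I and III collagen, had a mean of 0.28 to 0.49 in young and of 0.66 to 0.79 in aged cerebellum, and 1 of the 8 was called, higher. Of the 7 endothelial and 8 mural markers, 0 were called with age in cerebellum, where the endothelial mean ranged from 0.60 to 0.86 in young and from 0.60 to 0.80 in aged mice.

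The 12 cerebellar arrays of the other aged groups, which differ in diet or genotype, give a description of the same 5 genes. The deficient wild-type arrays share the slide of the normal-diet aged wild-type arrays, and the Ttpa-/- arrays lie on a further slide. Col23a1 was between -3.06 and -2.32 on them, below the lowest young array on 12 of 12. For Col3a1 the range was -2.93 to -1.09, and for Col9a3 it was -2.92 to -1.97, both below the lowest young array on 12 of 12. Col4a1 and Col4a2 were below the lowest young array on 11 of 12. Col27a1 was below it on 12 of 12 as well. Col1a2 was below its lowest young array on 9 of 12. Col1a1 lay below the lowest young array on 12 of these 12 arrays, from -1.08 to 0.42, although the normal-diet aged wild-type arrays reached 2.14.

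**Figure D2:**
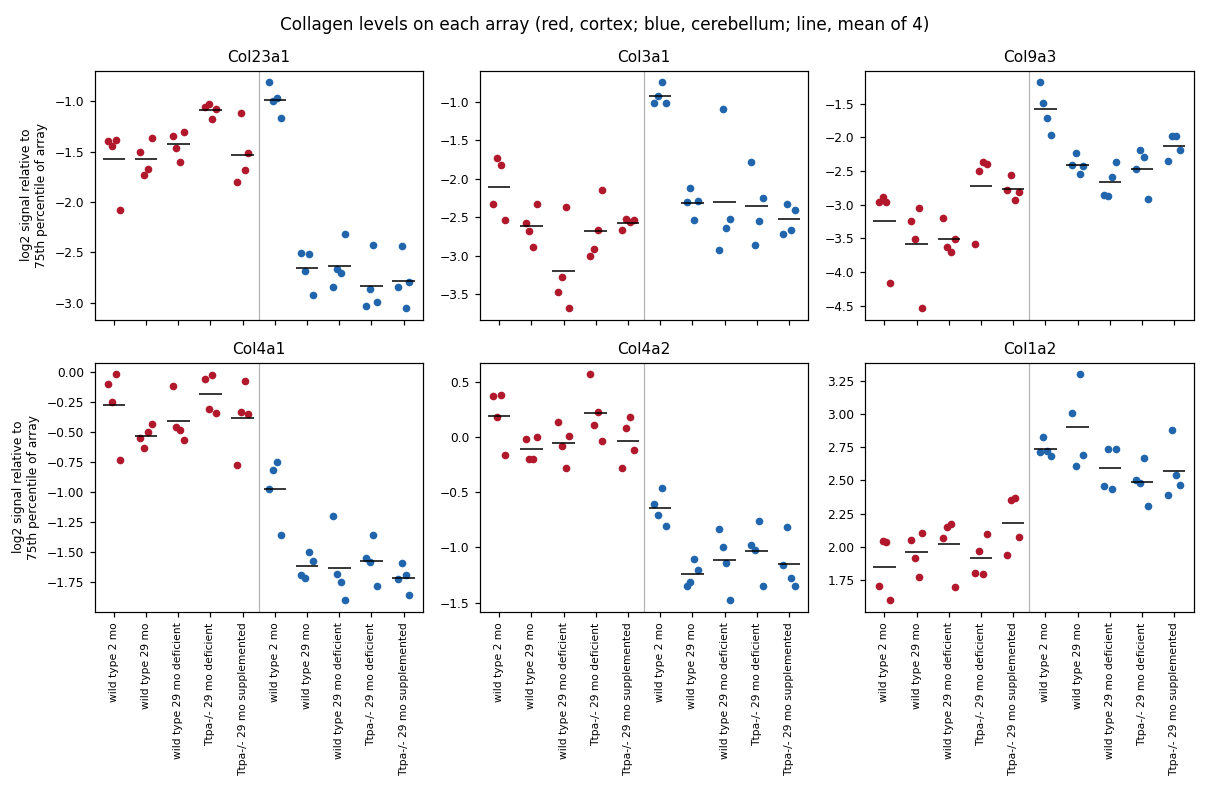
Level of 6 collagens on each of the 40 arrays (y axis, log2 signal relative to the array's 75th percentile), by group, with cortex in red, cerebellum in blue and a line at the mean of 4 arrays. Col23a1 lies between -1.16 and -0.81 in young cerebellum and at or below -2.32 on every aged cerebellar array. Col1a2 lies between 2.61 and 3.30 in aged wild-type cerebellum on the normal diet, overlapping the young arrays.

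In cortex, 0 of 24 collagens were called with age by limma, where 2.25% of all genes were, and 3 passed an unadjusted p under 0.05, where 15.3% of all genes did. The changes ranged from -0.56 for Col20a1 to 0.67 for Col5a3. This comparison was made within 1 slide. The dim Col2a1 was not tested, being above background on 2 of 4 young and 3 of 4 aged arrays. Without the 4 arrays that stand apart, it was above background on every remaining aged array. It entered the test only through that aged group, where it is higher. It was then called higher in aged cortex, by 1.62 (adjusted p = 0.0140). Its change then also differed from that in cerebellum, by 2.23 (adjusted p = 0.0327), where the comparison of all arrays gave 1.92 (adjusted p = 0.0850).

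**Figure D3:**
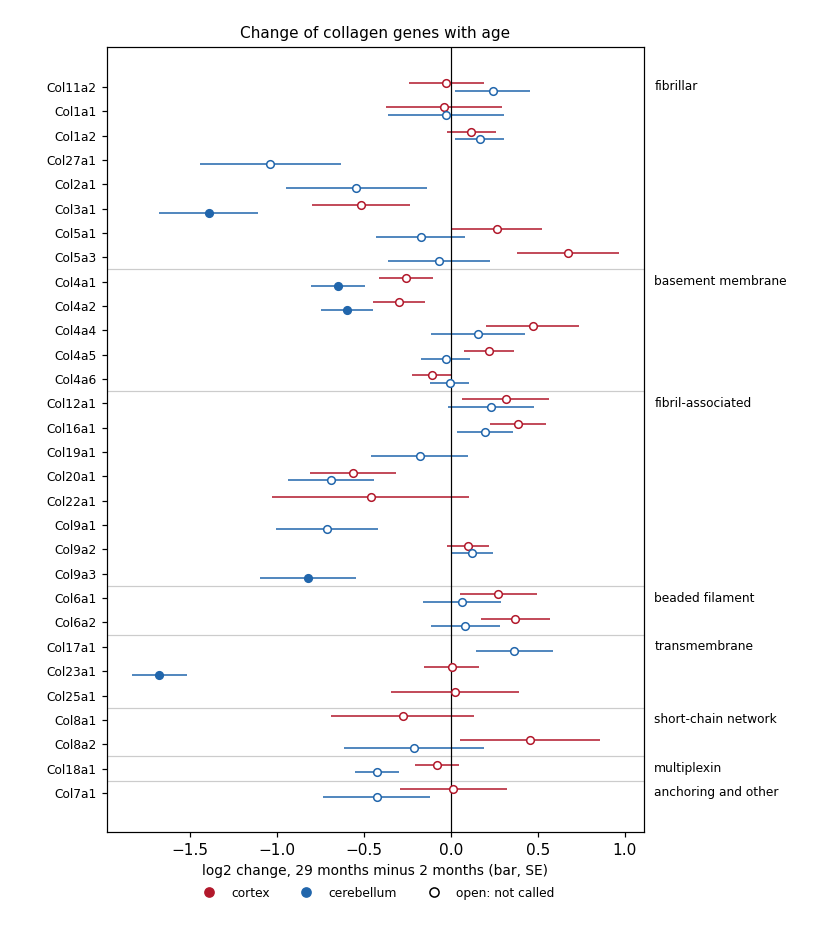
Log2 change from 2 to 29 months (x axis) of each collagen tested in cortex (red) or cerebellum (blue) of wild-type mice, with bars of 1 SE and genes grouped by class. The 5 filled points are the calls in limma, all in cerebellum: Col23a1 at -1.68, Col3a1 at -1.39, Col9a3 at -0.82, Col4a1 at -0.65 and Col4a2 at -0.60.

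In young cerebellum and young cortex, the array that stands apart in choroid plexus markers was also extreme for a few collagens. Young cerebellum replicate 1, with the highest marker mean (2.49), had Col8a1 at -2.45, where the other 3 young cerebellar arrays were between -4.98 and -4.15. Its Col8a2 level was -0.05 against -2.21 to -1.82. In young cortex, replicate 4 with a marker mean of -2.93 had Col8a2 at -2.68, against -0.89 to -0.78 on the others, and Col9a3 at -4.17, against -2.96 to -2.88. Within these groups the array that stands apart was thus also the extreme one for these genes. Between groups, Col8a2 levels in cerebellum did not keep the order of the markers. On the 12 cerebellar arrays of the other aged groups, marker means were between -3.71 and -2.54. Col8a2 was between -1.88 and -0.97 on them, with a median of -1.53. Young cerebellum replicates 2 to 4 had marker means of -1.65 to -0.37 and Col8a2 at -2.21 to -1.82. Col8a1 was between -5.63 and -3.86 on those 12 aged arrays, overlapping the young ones. Col9a3 was between -2.92 and -1.97 on them, below all young cerebellar arrays, which lay between -1.96 and -1.18. Whether these levels follow the markers was not tested. Without the 4 arrays, Col8a2 was higher in cortex than in cerebellum by 1.20 at 2 months (adjusted p = 0.000222) and 1.05 at 29 months (adjusted p = 0.000516). With them, the differences were 0.24 and 0.91 and were not called. Of the 9 choroid plexus markers, 6 were higher in cortex and 1 in cerebellum at 29 months, and 1 was higher in cerebellum at 2 months. Without the 4 arrays, Col19a1 was also lower in cortex at both ages (-0.96 and -0.72). Col24a1, not tested with all arrays, was then called higher in cortex at 2 months (2.33, adjusted p = 0.00115). It entered that test only through young cortex, where it is higher. It was above background on 1 cerebellar array, so that the size of its difference rests on signals near background.

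**Figure D4:**
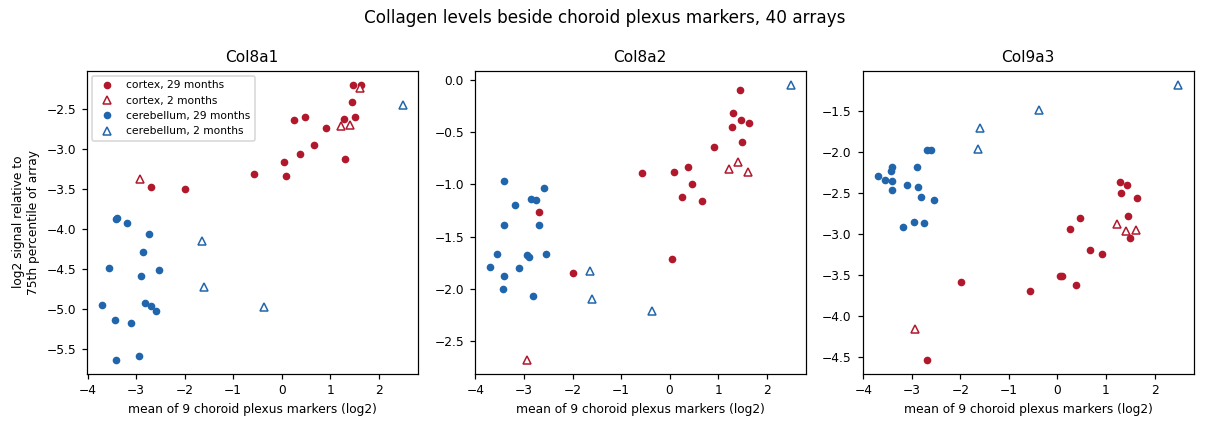
Level of Col8a1, Col8a2 and Col9a3 (y axis, log2 signal relative to the array's 75th percentile) against the mean log2 level of 9 choroid plexus markers (x axis) on 40 arrays, with cortex in red, cerebellum in blue and young mice as open triangles. The young cerebellar array at a marker mean of 2.49 and the young cortical array at -2.93 lie at the ends of their groups; the points share tissue and scaling, and no test was made.

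Diet alone moved no collagen past the test in wild-type mice. In aged wild-type mice on the deficient against the normal diet, 0 of 25 collagens were called in cortex by limma, where 0.174% of all genes were called, and 0 of 27 in cerebellum, where 1.29% were. At an unadjusted p under 0.05 there were 7 collagens in each region, where the shares among all genes were 15.6% in cortex and 21.7% in cerebellum. In cortex the change nearest to a call was Col4a5 at -0.57 (SE 0.14, adjusted p = 0.0627). It was called without the 4 arrays that stand apart (-0.63, adjusted p = 0.0329). In cerebellum, Col1a1 changed by -1.05 (SE 0.33, adjusted p = 0.0607), where its levels on the normal diet spread from -0.38 to 2.14.

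On the deficient diet, 2 collagens were higher in Ttpa-/- than in wild-type cortex, and these groups lay on different slides. Of 28 tested, 2 were called higher and 0 lower, where 1.33% of all genes were called higher, 1.57% lower and 2.91% in either direction. Of the 25 collagens above background on all arrays of both groups, 23 had a change above 0, with a median of 0.24 against -0.02 over all such genes. Against normal-diet wild type, the same Ttpa-/- group had 11 of 23 such collagens above 0, with a median of -0.02 against -0.04. Supplemented Ttpa-/- against deficient wild-type cortex gave 22 of 25, with a median of 0.37 against -0.02. Deficient against normal-diet wild-type cortex gave 10 of 23, with a median of -0.16 against 0.01. The deficient Ttpa-/- group contains 1 of the arrays that stand apart. Col10a1 read -3.87, -3.84, -3.43 and -2.98 in Ttpa-/- mice, all above background, and -4.28, -4.62, -4.76 and -4.54 in wild-type mice on the same diet, none above background. It was at least 1.90-fold higher (adjusted p = 0.0203), and it entered the test only through the Ttpa-/- group, where it is higher. The call was lost without wild-type replicate 3 or Ttpa-/- replicate 3 or 4, and by median scaling, normexp, a fit of these groups alone and the methods' t-test, with changes down to 0.23. Col6a2, a chain of the type VI collagen that forms beaded filaments around cells, read -0.16, -0.81, -0.83 and -0.86 in Ttpa-/- and -1.13, -1.12, -1.19 and -1.58 in wild-type cortex. The change was 0.59 (SE 0.20, adjusted p = 0.0447). The highest value, -0.16, came from the array that stands apart. Without it the change was 0.42 (adjusted p = 0.227), and the call was lost.

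Its partner chain Col6a1 changed by 0.59 (SE 0.22, adjusted p = 0.0759), without overlap of the groups. Col9a3 changed by 0.80 (SE 0.27, adjusted p = 0.0509). Without the arrays that stand apart, Col9a3 changed by 1.09 (adjusted p = 0.000244) and Col8a2 by 0.86 (adjusted p = 0.0328), both called higher. In cerebellum 0 of 26 collagens were called by limma for the same comparison, where 4.96% of all genes were, and 3 passed an unadjusted p under 0.05, where the share was 28.5%. Col4a6 changed there by 0.44 (SE 0.11, adjusted p = 0.0108), short of the fold threshold.

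Compared with normal-diet aged wild-type mice, Ttpa-/- mice on the deficient diet had 2 of 28 collagens higher in cortex, where 4.91% of all genes were called, 3.2% higher and 1.71% lower. These comparisons share arrays with those above, and their groups lay on different slides. Col6a2 changed by 0.76 (SE 0.20, adjusted p = 0.00745), from -1.27, -1.56, -1.56 and -1.30 in wild-type mice. Without the arrays that stand apart it changed by 0.63 (adjusted p = 0.0658). Col9a3 changed by 0.88 (SE 0.27, adjusted p = 0.0237), with overlapping groups and an exact permutation p of 0.114. Each of the 2 groups holds an array that stands apart, with Col9a3 at -3.59 in Ttpa-/- and at -4.54 in wild-type cortex, the lowest of its group in both. Without them the change was 0.85 (adjusted p = 0.00257).

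In cerebellum this comparison had 2 of 26 collagens lower, where 4.51% of all genes were called, 1.56% lower and 2.95% higher. Col11a2, a fibrillar chain of type XI collagen, read -3.10, -3.31, -3.72 and -3.60 in Ttpa-/- and -2.39, -2.34, -2.32 and -2.78 in wild-type cerebellum. The groups did not overlap, and the change was -0.98 (SE 0.22, adjusted p = 0.00292). Col16a1, a fibril-associated collagen, changed by -0.62 (SE 0.16, adjusted p = 0.0104). A second bright Col16a1 probe changed by -0.24 (adjusted p = 0.399), so that the probes disagree. For Col4a6 a change of 0.47 (adjusted p = 0.00656) and for Col1a2 one of -0.41 (adjusted p = 0.0482) stayed under the fold threshold.

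Supplemented Ttpa-/- mice were compared with deficient Ttpa-/- mice, whose cortical arrays lay on a different slide. On the supplemented diet 1 of 28 collagens was called lower in cortex, where 3.47% of all genes were called, 2.14% lower and 1.33% higher. This was Col10a1, which read -4.28, -4.19, -5.48 and -5.22 on the supplemented diet, not well above background on any array. It was at least 1.95-fold lower than on the deficient diet (adjusted p = 0.00473), a call lost by normexp, a fit of these groups alone and the methods' t-test. Col10a1 entered this test only through the deficient group, where it is higher. Normal-diet aged wild-type mice had Col10a1 at -3.25, -4.54, -4.32 and -3.58, overlapping both. Col6a2 changed by -0.47 (SE 0.20, adjusted p = 0.110) and Col4a5 by 0.44 (SE 0.14, adjusted p = 0.0356, under the fold threshold). In cerebellum, within a slide, 0 of 27 collagens were called by limma, where 0.346% of all genes were, and 2 passed an unadjusted p under 0.05, where the share was 11.4%.

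Supplemented Ttpa-/- mice and deficient wild-type mice shared a slide in cortex. There 1 of 26 collagens was called, higher in Ttpa-/- mice, where 0.0281% of all genes were called, 0.0188% higher and 0.00938% lower. This was Col4a5, at -2.80, -2.54, -2.40 and -2.55 in Ttpa-/- and -3.45, -3.27, -3.64 and -2.99 in wild-type mice. The groups did not overlap, and the change was 0.76 (SE 0.14, adjusted p = 0.0235). The call was kept in 2 of the 8 fits that each left out 1 array and under 8 of 13 alternatives, with changes down to 0.24 and adjusted p-values up to 0.680. Without the arrays that stand apart, which are in neither group, the spread was estimated from 36 arrays and Col9a3 passed too, at 0.74 (adjusted p = 0.0356), where the fit of all arrays gave an adjusted p of 0.387.

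Several genes were read by more than 1 probe. Of the 63 collagen probes, 33 were tested with age in cerebellum and 7 were called lower. These are the probes of the 5 genes above, with all 3 of Col23a1. In cortex 31 were tested and 1 was called higher. Over all genes, each by its brightest probe, 1.01% were called lower in cerebellum and 2.25% in either direction in cortex. The cortical call was the second Col4a6 probe, which rose by 0.70 in aged cortex (adjusted p = 0.0131), where the brightest Col4a6 probe changed by -0.11. That second probe also fell by 0.72 in deficient Ttpa-/- against aged wild-type cortex (adjusted p = 0.00383) and was lower in young cortex than in young cerebellum (-0.80, adjusted p = 0.000136), where the brightest probe was called in none of these comparisons. Col4a3bp, which is no collagen, was not called in any of the 14 comparisons.

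Genes that modify, process, bind and degrade collagen were followed as well. Of 18 genes for modification and folding, 17 were tested, and 0 were called with age in either region. Among all genes, 2.25% were called with age in cortex and 5.55% in cerebellum. On the deficient diet, Serpinh1, the chaperone of procollagen known as HSP47, was higher in Ttpa-/- than in wild-type mice in both regions. Its cortical levels were 0.57, 0.43, 0.52 and 0.81 in Ttpa-/- and -0.36, -0.07, 0.08 and 0.01 in wild-type mice. The change was 0.67 (SE 0.13, adjusted p = 0.00184) in cortex and 0.82 (SE 0.13, adjusted p = 0.000105) in cerebellum. Against normal-diet aged wild-type mice, Serpinh1 was not called in deficient Ttpa-/- mice in either region. The groups of all these comparisons lay on different slides. On the supplemented diet it fell by 0.64 in cortex (adjusted p = 0.00212) and by 0.61 in cerebellum (adjusted p = 0.0168). P4ha1, a subunit of the prolyl hydroxylase that stabilises the triple helix, was called in cerebellum. It fell by 0.85 with the deficient diet in wild-type mice (adjusted p = 0.0165), rose by 0.80 with the loss of Ttpa, with overlapping arrays (adjusted p = 0.0073), and fell by 0.79 with supplementation (adjusted p = 0.0482). In cortex P4ha1 fell by 0.59 with supplementation, with overlapping arrays (adjusted p = 0.0444).

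**Figure D5:**
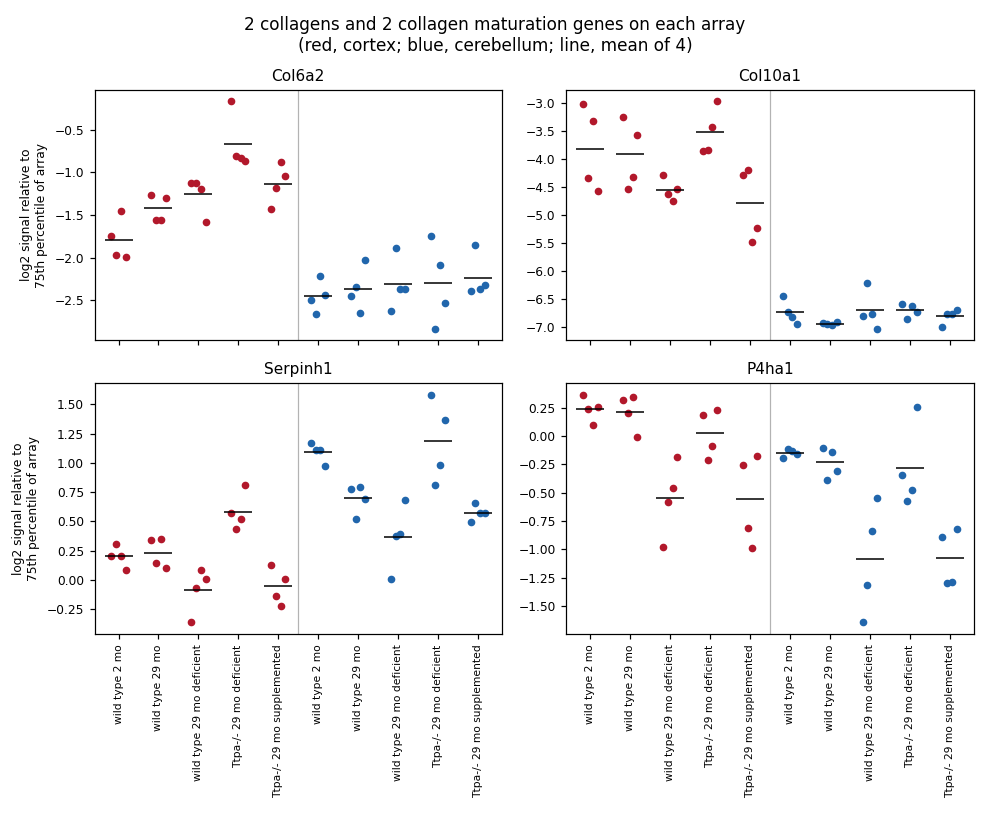
Level of Col6a2, Col10a1, Serpinh1 and P4ha1 on each of the 40 arrays (y axis, log2 signal relative to the array's 75th percentile), by group, with cortex in red, cerebellum in blue and a line at the mean of 4 arrays. In cortex, Col10a1 lies between -3.87 and -2.98 in deficient Ttpa-/- mice and between -5.48 and -4.19 in supplemented ones, and Serpinh1 falls over the same step.

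Of the 13 genes for processing and cross-linking, 9 were tested with age in cortex and 1 was called, where 2.25% of all genes were. In cerebellum 10 were tested and 2 were called, where the share was 5.55%. Adamts2, a procollagen N-proteinase, rose by 0.69 in aged cortex (adjusted p = 0.0389). It fell by 0.64 with the loss of Ttpa on the deficient diet in cortex (adjusted p = 0.0284), and rose by 0.72 there on the supplemented diet (adjusted p = 0.0139), both with overlapping arrays. Of the 10 receptors, such as integrins and discoidin domain receptors, 8 were tested and 0 were called in any comparison of age, diet or genotype by limma. The shares among all genes in these comparisons were 0.0281% to 5.55%. Of the 11 genes of degradation and its inhibitors, 7 were tested with age in cortex and 1 was called, where 2.25% of all genes were. In cerebellum 8 were tested, with 2 called higher and 1 lower, where the shares were 4.54% and 1.01%. Timp1, an inhibitor of matrix metalloproteinases, rose with age in both regions. In cerebellum it read -3.13, -2.94, -2.74 and -2.38 in young and -1.10, -1.24, -1.22 and -0.93 in aged mice. The change was 1.67 (SE 0.24, adjusted p = 5.45e-06) in cerebellum and 1.50 (SE 0.24, adjusted p = 0.000103) in cortex. Timp2, another such inhibitor, rose by 0.86 (adjusted p = 0.00708) and Mmp14, a membrane-bound collagenase, fell by 0.74 (adjusted p = 0.0111) in aged cerebellum, both with overlapping arrays. Mmp2, a gelatinase, fell by 0.88 in deficient wild-type cerebellum (adjusted p = 0.0157). In deficient Ttpa-/- cerebellum it was not well above background and was at least 1.83-fold lower than in wild-type mice on the normal diet (adjusted p = 0.000392).

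Of 20 other basement membrane and matrix genes, 1 was called with age in cerebellum, where 5.55% of all genes were. In cortex 0 were called, where the share was 2.25%. The cerebellar call was Nid1. Nid1, which links the laminin and type IV collagen networks, read 0.45, 0.92, 0.86 and 0.82 in young and 0.08, 0.09, -0.21 and -0.09 in aged cerebellum. The change was -0.79 (SE 0.12, adjusted p = 2.49e-05). In cortex Nid1 changed by -0.13, and the change differed between the regions by 0.66 (SE 0.17, adjusted p = 0.0399). Lama1, a laminin chain, fell by 0.61 in cortex with the loss of Ttpa on the deficient diet (adjusted p = 0.00149) and rose by 0.67 on the supplemented diet (adjusted p = 0.000564).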

How the data were processed

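Scanner output was deposited for all arrays, and its processed signal, an intensity from which the authors' software had subtracted background, was the starting point here. The Feature Extraction version is 10.1.1.1 in the submitters' processing notes and 10.7.3.1 in the file headers. A deposited table of log2 values lay within a median of 0.00085 of the scaled, probe-centred log2 intensity. Outlier-flagged spots (95 to 148 an array) were left out, spots of a probe were averaged, and 55589 probes were kept. The 75th percentile was 365 to 925, and 51.4% to 61.4% of probes were well above background per the deposited flags, values of 0 or 1. With 4 arrays a group, their number sets the precision.

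All 40 arrays were fitted with limma 3.58.1 in R 4.3.3, with 10 group coefficients, no block and empirical Bayes moderation. A probe was tested where it was well above background on all 4 arrays of a compared group. Benjamini-Hochberg adjustment covered all probes tested, and genes were called at an adjusted p under 0.05 with a change over 1.5-fold. A gene is represented by its probe with the highest mean, and shares over all genes use the same rule. A gene not well above background on any array of a group is given a lower bound, against the higher of each dim array's own signal and its lowest signal above background. Exact two-sided permutation tests compared 4 with 4 arrays. The genes named are the major type I, III, IV, V, VI, XV and XVIII chains and every collagen called, beside those near a threshold or changed without the 4 arrays that stand apart, which were chosen after their values were seen. The members, gene lists and tests were chosen with earlier results of these data known. The fit was tested on simulated data. Sequences are from the deposited probe tables (mm9) and RefSeq (GRCm38.p6). Whether mice of the same number in the 2 regions are the same animals is not given in the sources used here.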

Additional observations from a re-analysis of the deposited data

Results flagged for a closer look

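Over 25 named collagens in 10 groups, 250 sets of 4 arrays were examined for an array far from the other 3, by the gap to its nearest neighbour as a share of the range. In 18 the share passed Dixon's limit, where chance gives about 1 in 20, or 12.5. In young cortex, replicate 4 was low for Col23a1 (0.913), Col27a1 (0.846) and Col9a3 (0.935), and replicate 2 was low for Col17a1 (0.8293). Replicate 4 is 1 of the arrays that stand apart in choroid plexus markers. In aged wild-type cortex on the normal diet, replicate 3 was high for Col27a1 (0.840), and on the deficient diet replicate 4 was low for Col6a2 (0.842). In deficient Ttpa-/- cortex, replicate 1, which also stands apart, was high for Col6a2 (0.922) and low for Col9a3 (0.895), and replicate 2 was high for Col17a1 (0.895). In young cerebellum, replicate 4 was low for Col15a1 (0.894) and high for Col16a1 (0.925). In aged wild-type cerebellum on the normal diet, replicate 4 was low for Col11a2 (0.855) and Col27a1 (0.920), and replicate 2 was high for Col18a1 (0.833). On the deficient diet, replicate 4 was high for Col17a1 (0.843). In deficient Ttpa-/- cerebellum, replicate 2 was high for Col18a1 (0.851) and low for Col7a1 (0.954), and on the supplemented diet replicate 2 was high for Col6a2 (0.866). Col17a1 in cortex and Col15a1 in young cerebellum were not well above background on any array, so their gaps lie among background signals.

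The change of Col23a1 with age differed between the regions by 1.68 on the log2 scale in a test of the difference itself.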

How the results depend on the processing

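The counts of collagens called stayed within 1.5 times for the regions (22 and 19) and for supplementation in cerebellum (0) under every alternative that keeps all arrays. Ageing in cerebellum (5) gave 8 at an unadjusted p and stayed within 1.5 times otherwise. Ageing in cortex (0) gave 1 at an unadjusted p, and its difference from cerebellum (1) gave 2 by quantile normalization, 3 with array weights and 6 unadjusted. Deficient diet in cortex (0) gave 2 with array weights and 2 unadjusted. In cerebellum (0) it gave 3 by median scaling, 3 by quantile normalization, 1 by normexp, 4 with array weights and 4 unadjusted. Ttpa loss on the deficient diet gave in cortex (2) 0 by median scaling, normexp, a fit of the compared groups alone and the methods' t-test after adjustment, 1 with no filter on dim probes and 4 unadjusted. In cerebellum (0) it gave 1 by median scaling, 1 unadjusted and 1 with no fold threshold. Ttpa loss plus deficient diet gave in cortex (2) 1 by normexp, 0 by the methods' t-test and 4 unadjusted. In cerebellum (2) it gave 0 by normexp, 1 in the compared groups alone, 1 by the methods' t-test, 4 unadjusted, 4 with no fold threshold and 1 by the mean of a gene's probes. Supplementation in cortex (1) gave 0 by normexp, in the compared groups alone and by the methods' t-test, and 2 with no fold threshold. Supplemented Ttpa-/- against deficient wild-type cortex (1) gave 0 by median scaling, quantile normalization, normexp, the compared groups alone and the methods' t-test, 2 with array weights and 6 unadjusted. The cause of these moves was not tested. Without the 4 arrays that stand apart, chosen after seeing the data, the counts were 1 for ageing in cortex, 2 for its difference from cerebellum, 1 for the deficient diet in cortex, 1 for Ttpa loss plus deficient diet in cortex and 2 for supplemented Ttpa-/- against deficient wild-type cortex.

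Leaving out 1 array at a time gave 2 to 5 for ageing in cerebellum, 0 to 1 in cortex and 1 to 2 for their difference. For the deficient diet it gave 0 to 1 in cortex and 0 to 3 in cerebellum, for Ttpa loss 0 to 2 and 0 to 1, and for Ttpa loss plus deficient diet 1 to 2 and 1 to 4. It gave 1 to 1 for supplementation in cortex, 0 to 0 in cerebellum, 0 to 2 for supplemented Ttpa-/- against deficient wild-type cortex, 21 to 23 for the regions at 2 months and 16 to 21 at 29 months. Col23a1 and Col3a1 stayed called lower in aged cerebellum under all 13 alternatives and without any of the 8 arrays. Col4a1 was lost without young cerebellum replicate 3, by normexp and by the methods' t-test (adjusted p = 0.0531). Col4a2 kept its call in 4 of 8 such fits and Col9a3 in 1 of 8. The Col6a2 call for Ttpa loss in cortex kept in 1 of 8, and the Col4a5 call in 2 of 8. Col10a1 lost its Ttpa loss call without deficient wild-type cortex replicate 3 or deficient Ttpa-/- cortex replicate 3 or 4, and Col16a1 its call without aged cerebellum replicate 3 or deficient Ttpa-/- cerebellum replicate 2. For Ttpa loss plus deficient diet in cortex, Col9a3 lost its call without aged cortex replicate 4 or deficient Ttpa-/- cortex replicate 2, 3 or 4, and Col6a2 without deficient Ttpa-/- cortex replicate 1. Between the regions, some such fits ended the calls of Col11a2, Col1a1, Col23a1, Col4a1 and Col6a2 at 2 months and of Col1a1, Col27a1 and Col4a5 at 29 months. Of the 55 calls of a collagen in a comparison, none changed sign under the alternatives, and 655 of the 714 values under an alternative kept the call. Values near 0 that were not called did change sign, such as ageing of Col6a1 in cortex, 0.27 and -0.03 without the 4 arrays.

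The replicate number as a block gave the same counts within 1.5 times, 5 for ageing in cerebellum, but for Ttpa loss in cortex it ended the Col6a2 call and gave one to Col9a3. In no comparison were the correlations of all 4 same-numbered pairs over 0.1 (-0.446 to 0.664), although in some all were above 0, so the numbers were taken only as names. Scaling moved the median of all genes by over 0.1 in some comparisons, at most -0.23 for the regions under quantile normalization. Each group lay on 1 slide, so no slide block was run. Dim collagens are limited by signal over background, since 10 of 42 could not be tested with all arrays.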
